A study of Homo sapiens with 12 samples.

Results

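Long non-coding RNAs are transcripts without a recognised protein-coding frame, and 30 of the 3699 rows of the deposited expression table carry that type. All 30 were taken, whatever their values. The table otherwise holds 3647 mRNA rows and 20 pseudogene rows. RNA was measured in SW480, an established human cell line derived from a colorectal adenocarcinoma. The 12 libraries form 4 groups of 3: untreated cells, cells given PUE, cells given GLY, and cells given both (GLY_PUE). All cells were grown in medium with 10% serum for 12 h and were then kept in fresh medium with or without the agents. The treated libraries are labelled 12 h, except for GLY replicates 2 and 3, which are labelled 13 and 14 h. Neither the doses nor the full names of PUE and GLY could be read from the labels.

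Transcripts of this class act in several ways. Some are primary transcripts from which microRNAs are cut, some are read from the strand opposite a coding gene or start from a promoter shared with one, and some bind chromatin proteins or other RNAs. Most are present at few copies per cell, and many still carry only a locus number in place of a name. Many have been studied in colorectal cancer cells for levels that differ from those of normal colon.

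By gene identifier, 29 of the 30 matched a current RefSeq gene, each with the biotype lncRNA, and LOC107985428 did not match. For 14 of them the current symbol says more than the one in the table. CASC10 (gene 399726) is now MIR1915HG, the host gene of the microRNA miR-1915. LOC105369201 is GCAWKR, a transcript named for gastric cancer and for the chromatin proteins WDR5 and KAT2A. C17orf51 (gene 339263) is LINC02693, LOC101927322 is MALT1-AS1 and GVQW2 is CCDC28A-AS1. In all, 10 carry a symbol that marks them as antisense to a coding gene or as divergent from its promoter, 1 is a microRNA host, and 11 overlap a coding gene.

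Mature sequences of the microRNAs assigned to 2 of these loci are shown because counts on both loci were lower after GLY. The seed, bases 2 to 8, is in capitals; the sequences are from RefSeq (GRCh38.p14), and the 3 seeds differ. CASC10 is the host of MIR1915 by its current symbol. MIR4734 was assigned to LOC105371763 by hand, and whether it lies inside that locus was not computed here. The mature microRNAs themselves were not measured.
hsa-miR-1915-3p, CASC10, chr10:21496576-21496595, minus strand: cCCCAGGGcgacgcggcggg
hsa-miR-1915-5p, CASC10, chr10:21496609-21496630, minus strand: aCCUUGCCuugcugcccgggcc
hsa-miR-4734, LOC105371763, chr17:38702270-38702291, minus strand: gCUGCGGGcugcggucagggcg

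Promoter windows, 250 bases before to 50 after a start site, are shown for 3 transcripts that were lower after GLY under every scaling, for 1 that was higher under every scaling, and for a pair of loci whose windows are the same sequence. Capitals mark GGGCGG on either strand, the letters of a GC box. None of these windows holds, on either strand, any of the other 5 motifs searched, which were the TATA box letters TATAAA, the CCAAT box, the E-box letters CACGTG, the cyclic AMP response element TGACGTCA and the TCF/LEF letters CTTTGAT. LOC105369201 has a second window, which is not shown.
CASC10, chr10:21497211-21497510, minus strand: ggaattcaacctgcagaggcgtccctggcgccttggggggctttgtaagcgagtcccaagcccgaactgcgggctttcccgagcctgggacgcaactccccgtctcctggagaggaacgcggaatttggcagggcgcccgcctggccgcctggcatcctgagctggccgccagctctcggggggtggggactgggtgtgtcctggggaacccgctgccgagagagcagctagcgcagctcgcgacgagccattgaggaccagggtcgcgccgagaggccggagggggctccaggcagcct
LOC105369201, chr15:100849502-100849801, plus strand: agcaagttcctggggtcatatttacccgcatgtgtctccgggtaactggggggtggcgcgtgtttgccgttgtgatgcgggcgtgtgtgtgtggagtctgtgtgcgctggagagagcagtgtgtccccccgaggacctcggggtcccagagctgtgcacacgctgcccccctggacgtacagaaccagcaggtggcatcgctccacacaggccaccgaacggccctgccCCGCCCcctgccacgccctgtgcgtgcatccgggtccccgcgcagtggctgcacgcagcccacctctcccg
LOC112267991, chr7:431752-432051, minus strand: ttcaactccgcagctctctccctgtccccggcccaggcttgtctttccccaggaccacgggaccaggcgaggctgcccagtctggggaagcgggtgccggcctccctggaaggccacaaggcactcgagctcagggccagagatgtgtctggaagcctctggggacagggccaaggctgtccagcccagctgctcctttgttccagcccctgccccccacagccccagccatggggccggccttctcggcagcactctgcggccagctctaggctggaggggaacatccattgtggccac
LOC105374378, chr2:27715873-27716172, plus strand: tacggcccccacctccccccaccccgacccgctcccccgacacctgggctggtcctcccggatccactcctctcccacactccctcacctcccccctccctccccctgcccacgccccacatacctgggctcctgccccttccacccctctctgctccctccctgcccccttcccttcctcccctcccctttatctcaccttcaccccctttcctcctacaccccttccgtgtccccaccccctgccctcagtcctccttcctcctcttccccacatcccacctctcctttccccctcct
LOC79999, chr17:19162575-19162874, minus strand, identical over 300 of 300 bases to LOC388436, chr17:19215380-19215679, plus strand: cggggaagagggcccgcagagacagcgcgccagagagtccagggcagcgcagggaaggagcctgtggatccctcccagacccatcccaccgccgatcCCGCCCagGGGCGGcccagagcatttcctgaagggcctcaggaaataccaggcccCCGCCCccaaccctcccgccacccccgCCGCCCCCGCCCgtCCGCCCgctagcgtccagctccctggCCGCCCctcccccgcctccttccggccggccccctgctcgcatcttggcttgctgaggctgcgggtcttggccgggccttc

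Windows of 23 of the 30 genes were read, 26 windows in all. TATAAA was in 0 of the 26, and in 11.5% of the 35116 windows of the whole RefSeq table. GGGCGG was in 10 of 26 (38.5%) against 44.95% of all windows, and CCAAT in 7 of 26 (26.9%) against 34.6%. The median GC content was 63.8% in the 26 windows and 58.7% in all. The 26 windows are not all separate sequences. Those of LOC79999 and LOC388436, both with GGGCGG, are the same, and the windows of LOC100130370 overlap. These shares describe the letters only.

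Most of the 30 transcripts were scarce. The median level per transcript length in untreated cells was 0.503 FPKM, against 2.39 FPKM for the mRNA rows. In untreated libraries 3 of the 30 averaged at least 100 counts (C17orf51, CASC10 and LOC105369201), and 6 averaged fewer than 10. Library totals recovered from the table were 19.7 to 21.4 M reads, so that 3 counts, the limit that a count of 0 allows, stood for 0.140 to 0.152 CPM (counts per 1e+06 reads). Such limits and the intervals on counts below cover counting error only. A filter on low counts kept 25 of the 30 for testing. LOC100130357, LOC100134391, LOC107984282, LOC112268140 and C10orf55 did not pass it.

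All rows of the table had been selected by the authors for a difference between groups, and their calls are read against that background. GLY_PUE and GLY are both compared with the same 3 untreated libraries. Replicate 3 of each group differed from replicates 1 and 2 in many rows, and a comparison of these 4 libraries is given after the treatments. A marker gene without a difference between groups has no row, so the markers present or absent cannot check the cell type. The table holds 4 of 15 colon epithelial markers (LGR5, ASCL2, VIL1 and CDX2), all 4 lower in GLY. Of all rows tested, 64.6% were lower in GLY and 19.7% higher. The 4 markers summed to 152 to 206 CPM in untreated and 22.8 to 41.7 CPM in GLY libraries. The table also holds 2 of 6 leukocyte markers, CD14 and CD68, with 1 higher and 1 lower in GLY. These summed to 4.63 to 6.91 CPM in untreated and 17.1 to 24.4 CPM in GLY libraries. The table holds 1 of 6 fibroblast markers, PDGFRB, at 0.838 to 0.995 and 1.64 to 3.56 CPM, and 0 of 4 endothelial markers. All 9 stress genes listed were higher in GLY, against 19.7% of all rows tested. Their sums were 1099 to 1367 CPM in untreated and 5599 to 11020 CPM in GLY libraries. Their part in the results below was not tested. In bulk RNA, fewer cells of a type and less RNA per cell cannot be told apart.

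GLY moved the class in opposite directions depending on the transcript. Relative to library totals, counts on C17orf51 rose while counts on 18 of the others fell, 3 of them also relative to the typical row of the table. Such falls were common in the table, where 64.6% of all rows tested were lower in GLY and the median log2 fold change was −1.15. C17orf51, the most abundant of the 30, made up 43.5 to 57.9% of their counts in the 6 untreated and PUE libraries and 79.5 to 85.5% in the 6 libraries that received GLY. The other 29 together had 46.0, 53.7 and 69.8 CPM in the untreated libraries, 49.6, 47.1 and 71.4 in PUE, 26.3, 25.6 and 35.5 in GLY, and 25.2, 27.8 and 37.3 in GLY_PUE. Every GLY and GLY_PUE library was thus below every untreated and PUE library in this sum, and above all of them in counts on C17orf51. The sum over all 30 went from 116 ± 8.18 CPM in untreated to 180 ± 57.2 in GLY and 192 ± 30.7 in GLY_PUE (SD, n = 3 each). GLY replicate 1, at 128 CPM, was below PUE replicate 3, at 129 CPM.

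**Figure D1:**
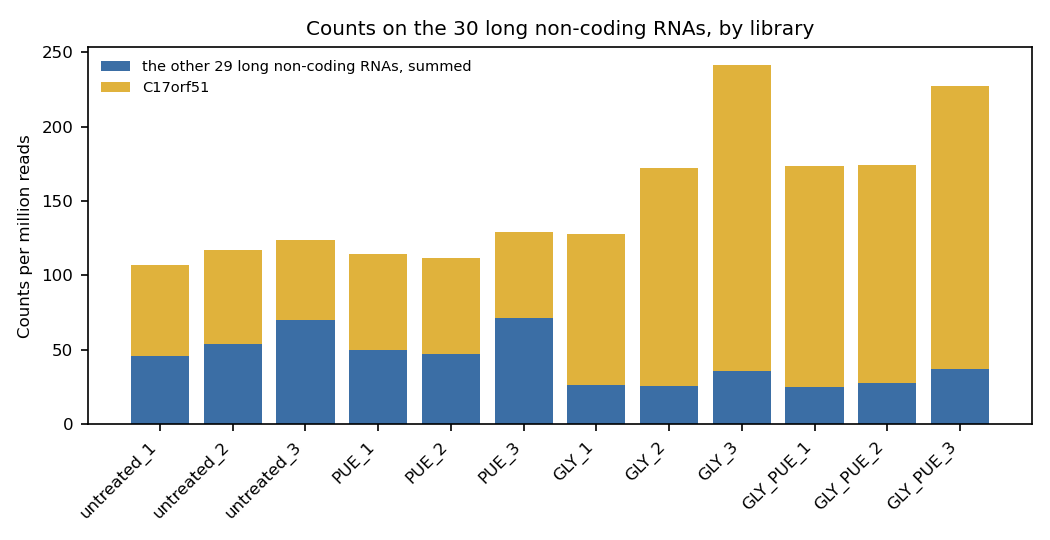
CPM on the 30 long non-coding RNAs in each of the 12 libraries, with C17orf51 stacked on the sum of the other 29. The lower segment is 46.0 to 71.4 in the untreated and PUE libraries and 25.2 to 37.3 in the libraries that received GLY, while the upper segment grows.

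Against untreated cells, 21 of the 25 tested transcripts changed with GLY: 3 were higher and 18 lower (edgeR quasi-likelihood test, Benjamini-Hochberg adjusted p under 0.05 over the 3429 rows tested). Of all rows tested, 84.3% were called, 19.7% as higher and 64.6% as lower, so that the share called among the long non-coding RNAs was near that of the table. The median log2 fold change was −1.24 over the 25 and −1.15 over all rows. Untreated and GLY values did not overlap for 19 of the 25, and for 83.3% of all rows.
Scaling by TMM, which centres the table on its typical row, raises these values by 1.13 on the log2 scale. It then calls 4 higher and 3 lower among the 25, and 33.7% of all rows. The calls that stood under both scalings were C17orf51, LINC00452 and LOC105374378 as higher, and CASC10, LOC105369201 and LOC112267991 as lower. LOC107985428 was called under TMM and not with library totals.

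C17orf51 had 1241, 1279 and 1089 counts in the untreated libraries, 1305, 1319 and 1135 in PUE, 2151, 3126 and 4388 in GLY, and 3171, 3109 and 4008 in GLY_PUE. GLY replicate 1 was the lowest of the 6 libraries given GLY, and none of them overlapped the other 6. The 3 GLY libraries differ in the labelled hours, 12, 13 and 14. The log2 fold change of GLY against untreated was 1.35 (SE 0.25, adjusted p = 0.000845 by edgeR) and that of GLY_PUE was 1.44 (SE 0.25, adjusted p = 0.000626). Without GLY replicate 3 the value for GLY was 1.06, and without GLY replicate 1 it was 1.56. In GLY replicate 1, 1 FPKM of this gene stood for 136 counts, against 93.2 to 111 counts in the other 11 libraries, so its FPKM there, 15.8, was lower relative to its count. FPKM in the other GLY libraries was 31.6 and 39.6, and in untreated libraries 10.8 to 12.8. A GENCODE transcript of C17orf51, 1369 bases long, aligns with AC069061.2 on the same strand over 359 bases at 97.8% identity. How this affects its counts was not tested.

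LINC00452 (gene 643365), an intergenic transcript by its name, had 28.8, 31.7 and 9.95 counts in untreated, 19.01, 30.6 and 19.2 in PUE, 59.7, 66.0 and 115 in GLY, and 67.3, 61.3 and 86.0 in GLY_PUE libraries. Untreated replicate 3 was the lowest of the 12, and GLY replicate 3 the highest. Its log2 fold changes were 1.68 (SE 0.42, adjusted p = 0.00408 by edgeR) for GLY and 1.51 (SE 0.42, adjusted p = 0.00752) for GLY_PUE. LOC105374378, whose window is printed above, had 35.6, 29.4 and 42 counts in untreated, 38.8, 32 and 31.1 in PUE, 73.8, 79.5 and 103 in GLY, and 55.03, 79.2 and 87.1 in GLY_PUE libraries. Its log2 fold changes were 1.18 (SE 0.29, adjusted p = 0.00322 by edgeR) and 0.97 (SE 0.29, adjusted p = 0.00941). For both transcripts the libraries that received GLY lay above all others.

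LOC107985428 was at 46, 57 and 91 counts in untreated and at 138, 89 and 196 in GLY libraries, which overlap. Its log2 fold change of 1.05 (SE 0.46) had an adjusted p of 0.0509 by edgeR. Of 24 alternatives 12 called it, among them the replicate block (adjusted p = 0.00406), the fit without the libraries numbered 3 (0.0131) and TMM (0.00094), and without GLY replicate 3 the value was 0.74 (0.185). Its GLY_PUE libraries held 77, 80 and 232 counts, and in every group replicate 3 was the highest.

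CASC10, the host of the 2 miR-1915 sequences printed above, had 203, 193 and 157 counts in untreated, 201, 181 and 179 in PUE, 31, 20 and 24 in GLY, and 26, 35 and 23 in GLY_PUE libraries. The highest library given GLY had 35 counts and the lowest of the other 6 had 157. The log2 fold changes were −2.95 (SE 0.27, adjusted p = 1.64e-05 by edgeR) and −2.79 (SE 0.27, adjusted p = 2.85e-05). Its level went from 4.67 ± 0.628 FPKM in untreated to 0.603 ± 0.137 FPKM in GLY (SD, n = 3 each). Leaving out 1 library at a time, the GLY value stayed between −3.14 and −2.81. The nearest coding genes by the reference table are MLLT10, which was not analysed here, and SKIDA1, which had 78.5, 74.8 and 57.9 counts in untreated and 22.2, 23.04 and 11.3 in GLY libraries (log2 fold change −1.99, SE 0.33).

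LOC105369201 (GCAWKR) had 135, 140 and 239 counts in untreated, 122, 138 and 204 in PUE, 33.0, 28.1 and 26 in GLY, and 18, 33.1 and 44 in GLY_PUE libraries. The libraries numbered 3 were the highest of the untreated and PUE groups, and the groups with and without GLY did not overlap. The log2 fold changes were −2.63 (SE 0.37, adjusted p = 0.000175 by edgeR) and −2.50 (SE 0.36, adjusted p = 0.000249). Its neighbour ALDH1A3, which encodes an enzyme that makes retinoic acid, had 4826, 5003 and 7361 counts in untreated and 528, 1675 and 957 in GLY libraries.

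LOC112267991 had 12, 22 and 63 counts in untreated, 19, 15 and 72 in PUE, 0, 1 and 2 in GLY, and 2, 0 and 2 in GLY_PUE libraries. Summed over libraries and scaled to their totals, 97 counts in untreated against 3 in GLY is a 34.0-fold lower level in GLY (95% exact interval 11.3 to 168). Against the 4 counts in GLY_PUE the ratio was 25.5 (9.64 to 95.4). The adjusted p by edgeR was 0.00152 for GLY and 0.00204 for GLY_PUE. Untreated replicate 3 held 63 of the 97 counts. Without it the log2 fold change was −4.00 in place of −4.92 for GLY and −3.63 in place of −4.54 for GLY_PUE. The nearest gene in the table, PDGFA, a ligand of platelet-derived growth factor receptors, had 1997, 2185 and 4412 counts in untreated and 679, 792 and 891 in GLY libraries. In the untreated and PUE groups both genes were highest in replicate 3.

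**Figure D2:**
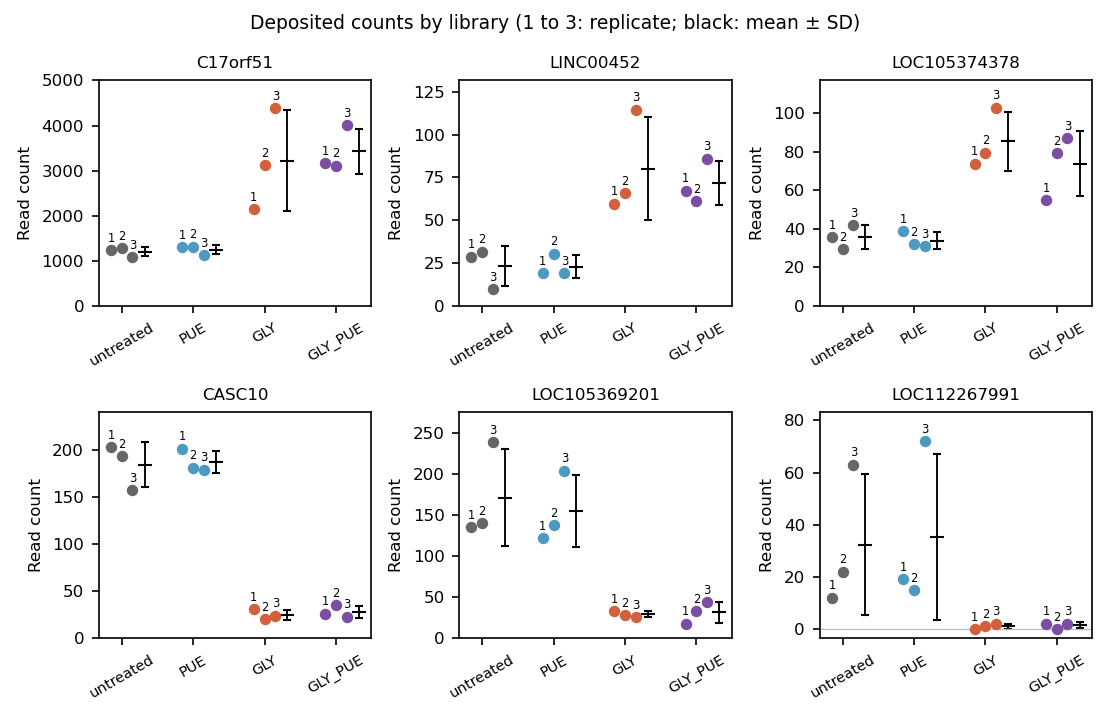
Deposited read counts of 6 long non-coding RNAs in each library, by group, with replicate numbers beside the points and the mean ± SD in black. C17orf51, LINC00452 and LOC105374378 are higher in every library given GLY than in any other, and CASC10, LOC105369201 and LOC112267991 are lower.

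The next largest decreases in GLY were in transcripts with few counts. LOC102724378 had 15, 15 and 45 counts in untreated and 1, 6 and 6 in GLY libraries (log2 fold change −2.57, SE 0.73, adjusted p = 0.00615 by edgeR). Its promoter window shares 211 bases, on the opposite strand, with that of TRIOBP, a gene for an actin-binding protein. GVQW2 had 12.2, 11.8 and 22.8 counts in untreated and 3.08, 0 and 6.03 in GLY libraries (−2.41, SE 0.73, adjusted p = 0.00772). LOC100130370 had 38, 49.0 and 108 counts in untreated and 17.99, 11 and 10 in GLY libraries (−2.38, SE 0.65, adjusted p = 0.00614). In all 3 the highest untreated library was replicate 3, and no GLY library reached the lowest untreated one.

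LOC100996318 had 11.4, 17.4 and 8 counts in untreated and 0, 4.65 and 3 in GLY libraries (log2 fold change −2.19, SE 0.83, adjusted p = 0.0208 by edgeR). Its call was lost without GLY replicate 1 or without untreated replicate 2. LOC101927322, MALT1-AS1, had 26.8, 30.4 and 48.5 counts in untreated and 5.11, 7.59 and 15.03 in GLY libraries (−1.98, SE 0.52, adjusted p = 0.00472). LOC105371763, printed above with miR-4734, had 85, 76 and 107 counts in untreated, 25, 25 and 34 in GLY, and 14, 24 and 27 in GLY_PUE libraries. Its log2 fold changes were −1.74 (SE 0.34, adjusted p = 0.00108) and −2.11 (SE 0.35, adjusted p = 0.000442), and under TMM only the second was called (adjusted p = 0.00878).

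The remaining 9 lower calls in GLY had log2 fold changes from −1.63 (LOC112268124) to −1.02 (C8orf44). They were C10orf25, C8orf44, C9orf66, LOC100130451, LOC100505549, LOC107984399, LOC112267983, LOC112268105 and LOC112268124. Each mean in untreated libraries was between 19.7 and 55.5 counts. Relative to the table's own median of −1.15 these changes were small. Under TMM none was called, and C8orf44, C9orf66, LOC100130451 and LOC100505549 lay just above 0 (0.10, 0.06, 0.09 and 0.0067). Single libraries decided 5 of these 9 calls. C8orf44 and LOC100505549 each lost theirs without GLY replicate 1 or 2 or untreated replicate 2 or 3. C9orf66 lost it without GLY replicate 2 or 3 or untreated replicate 3, C10orf25 without untreated replicate 2, and LOC112268105 without untreated replicate 3. LOC79999, LOC388436 and LOC644634 were not called in GLY. A GENCODE transcript of C8orf44, 575 bases long, aligns with SGK3 on the same strand over 396 bases at 99.7% identity. For LOC100505549, at 1106 bases, the same held with AC027097.2 over 499 bases at 99.8%.

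**Figure D3:**
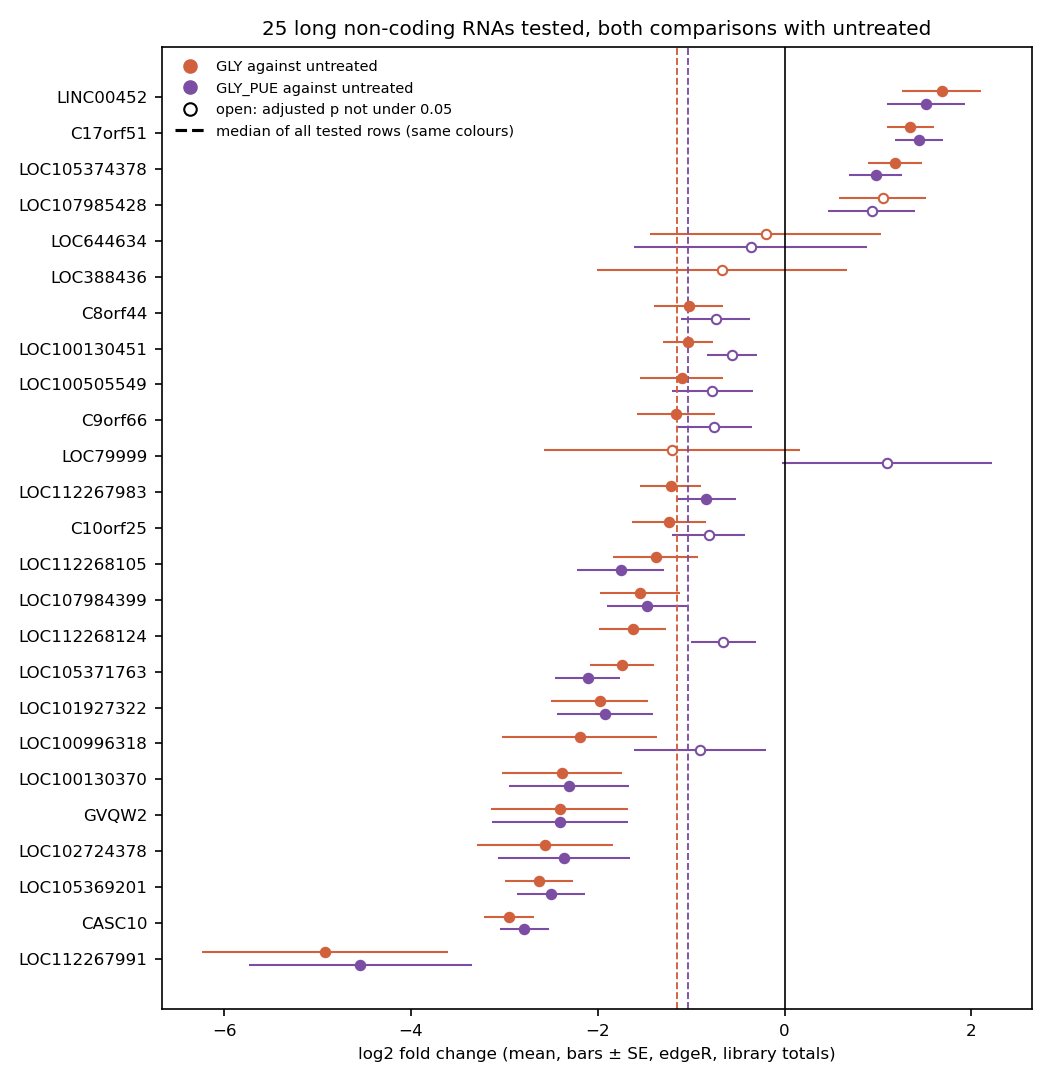
log2 fold changes with standard errors of the 25 tested long non-coding RNAs, GLY and GLY_PUE against the shared untreated libraries, with filled points for an adjusted p under 0.05 and dashed lines at the medians of all rows, −1.15 and −1.03; under TMM every value moves right by about these amounts. LOC388436 has no GLY_PUE point because its 3 GLY_PUE libraries held 0, 0 and 0.77 counts. LINC00452, C17orf51, LOC105374378 and LOC107985428 lie right of 0 in both comparisons, and CASC10, LOC105369201 and LOC112267991 lie farthest left.

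With GLY_PUE against untreated, 15 of the 25 were called, 3 higher and 12 lower, where 77.3% of all rows were called (20.2% higher, 57.1% lower). The median log2 fold change was −0.84 over the 25 and −1.03 over all rows, and TMM raises values by 1.01. The higher calls were C17orf51, LINC00452 and LOC105374378. The lower calls were CASC10, GVQW2, LOC100130370, LOC101927322, LOC102724378, LOC105369201, LOC105371763, LOC107984399, LOC112267983, LOC112267991, LOC112268105 and LOC388436, the last of which is described below with its identical copy. LOC112267983 lost its call without any of GLY_PUE replicates 1, 2 and 3 or untreated replicates 2 and 3, and LOC102724378 without untreated replicate 3 (−1.63 in place of −2.36). Because both comparisons use the same untreated libraries, calls shared with GLY are not independent. Untreated and GLY_PUE values did not overlap for 18 of the 25, and for 87.3% of all rows. TMM called 4 higher and 4 lower, and 35.4% of all rows.
The labels do not say that replicate numbers pair the libraries, and correlations did not tell numbers 1 and 2 apart here. As an alternative, the number was fitted as a block. Then 19 of the 25 were called, 4 higher and 15 lower, where 85.3% of all rows were called. The block added LOC107985428 (log2 fold change 0.82, adjusted p = 0.0147) as higher; without the block its value was 0.93, and 0.20 (adjusted p = 0.631) without GLY_PUE replicate 3. It also added C8orf44 (0.0287), LOC100130451 (0.0441) and LOC100505549 (0.0394) as lower.

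Called lower in GLY and not in GLY_PUE were 7 transcripts, C10orf25, C8orf44, C9orf66, LOC100130451, LOC100505549, LOC100996318 and LOC112268124. A call in one and none in the other does not show a difference, and none of the 7 passed the test of GLY_PUE against GLY. LOC112268124, BAZ1A-AS1, came nearest, with 41.8, 53.1 and 64.1 counts in untreated, 10.5, 14.7 and 28.0 in GLY, and 40.2, 39.1 and 27.0 in GLY_PUE libraries. GLY replicate 3 and GLY_PUE replicate 3 were nearly equal, so the groups overlap. The log2 difference of GLY_PUE from GLY was 0.97 (SE 0.36, unadjusted p = 0.0192, adjusted p = 0.959 by edgeR).

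GLY added to PUE gave 12 calls among the 25, 3 higher and 9 lower, where 77.8% of all rows were called. PUE and GLY_PUE values did not overlap for 19 of the 25 and for 87.8% of all rows. With the replicate number as a block there were 18, 4 higher and 14 lower, where 86.0% of all rows were called. TMM gave 5 higher and 4 lower, and 35.9% of all rows.

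PUE alone gave no call among the 25 and called 0.0% of all rows (edgeR). At an unadjusted p under 0.05 there were also 0 of the 25, and 0 calls by DESeq2. With the replicate number as a block 1 of the 25 was under 0.05 unadjusted and 0 were called. Untreated and PUE values did not overlap for 1 of the 25, C10orf25, and for 3.3% of all rows. The 3 transcripts with the smallest p were LOC107984399 (log2 fold change −0.54, SE 0.40, unadjusted p = 0.199), LOC79999 (−1.77, SE 1.53, unadjusted p = 0.232) and LOC101927322 (−0.58, SE 0.48, unadjusted p = 0.252). LOC101927322 had 17.4, 13.1 and 39.6 counts in PUE against 26.8, 30.4 and 48.5 in untreated libraries. LOC107984399 had 9.08, 14.9 and 16.4 against 14.2, 17.2 and 27.8. In both, the PUE library was the lower one for every replicate number, and the groups overlapped.
The authors' deposited table marks 1 of the 30 in this comparison, LOC644634, with a log2 ratio of 1.15 and a q of 1.51e-05. Its counts were 0, 25.9 and 34.4 in untreated and 62.8, 18.3 and 51.8 in PUE libraries, so that the groups overlap and replicate 1 alone went from 0 to the highest value. In edgeR the log2 fold change was 1.16 (SE 1.19, unadjusted p = 0.347). The same transcript was at 0, 37.4 and 17.5 in GLY and at 21.5, 27.0 and 0 in GLY_PUE libraries.

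PUE added to GLY gave no call among the 25 either, and called 0.0% of all rows (edgeR); 1 of the 25, LOC112268124, had an unadjusted p under 0.05, and DESeq2 called 0. GLY and GLY_PUE values did not overlap for 2 of the 25, LOC112267983 and LOC79999, and for 4.81% of all rows. Likewise the interaction of GLY and PUE called 0 of the 25 and 0.0% of all rows. There 1 of the 25 had an unadjusted p under 0.05, LOC79999 (0.0482, adjusted p = 0.999), and DESeq2 called 0. The standard errors show what such a comparison could resolve. For C17orf51 the log2 difference of GLY_PUE from GLY was 0.10 (SE 0.25), for CASC10 0.16 (SE 0.28), and for GVQW2 0.00 with an SE of 0.85.

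LOC79999 and LOC388436 share their sequence. Their transcripts in GENCODE release 29 are identical over 1173 of 1173 bases, and their promoter windows, on opposite strands of chromosome 17, are the sequence printed above. Reads from one cannot be told from reads of the other. Both transcripts also align with AC007952.2 on the same strand, with 1166 identical bases at 99.15% identity. Their windows match that of LOC102724624 over 282 of 300 bases. The sum of the pair given below therefore need not hold all reads of this sequence, and the effect on it was not tested. RefSeq now names LOC79999 GRAPL-AS1, antisense to GRAPL, with which both transcripts share 333 bases on the opposite strand. Counts in the table were not spread evenly over the pair. In 10 of the 12 libraries one locus of the pair held 0 counts, and which one changed between replicates of a group.
In untreated libraries LOC79999 had 14.5, 3.96 and 0 counts and LOC388436 had 0, 3.26 and 31.9. In GLY the values were 0, 7.67 and 0 for LOC79999 and 6.09, 0 and 16.6 for LOC388436. In GLY_PUE they were 11.7, 10.8 and 18.5, and 0, 0 and 0.77. The GLY_PUE libraries are the only group in which LOC79999 led in all 3.

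The deposited table of the authors marks both loci in GLY_PUE against GLY, with log2 ratios of 2.42 for LOC79999 and −4.88 for LOC388436. Their sum had 14.5, 7.22 and 31.9 counts in untreated, 6.82, 4.64 and 21.5 in PUE, 6.09, 7.67 and 16.6 in GLY, and 11.7, 10.8 and 19.2 in GLY_PUE libraries. Replicate 3 had the largest sum in each group. With the 2 rows summed, the log2 difference of GLY_PUE from GLY was 0.44 (SE 0.67, adjusted p = 0.959 by edgeR) and that of GLY_PUE from untreated was −0.40 (SE 0.65, adjusted p = 0.553). LOC388436 alone had been called lower in GLY_PUE against untreated (adjusted p = 0.0481), and the summed pair was not. Its call was also lost without GLY_PUE replicate 1, 2 or 3, untreated replicate 3, GLY replicate 1 or PUE replicate 1.

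**Figure D4:**
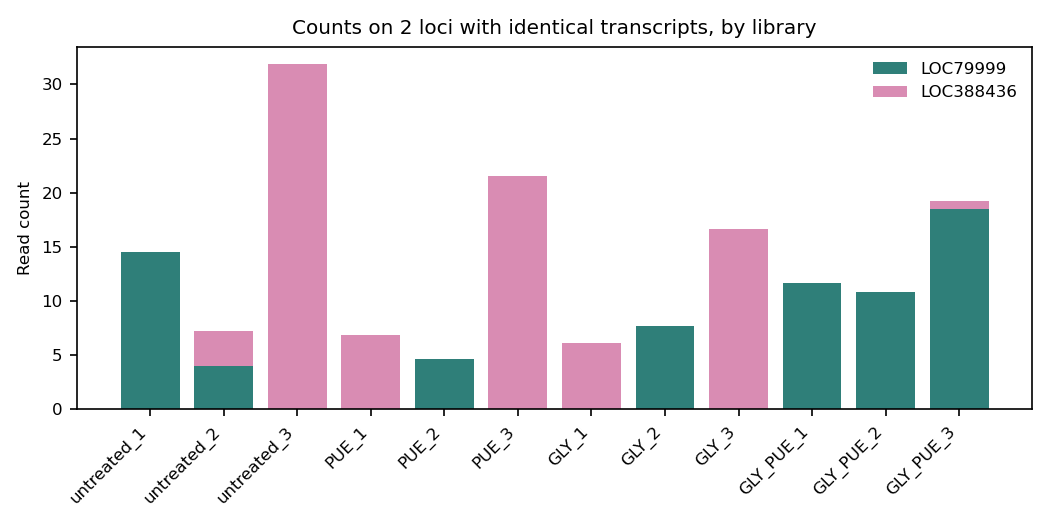
Read counts on LOC79999 and LOC388436, stacked, in each library. A single locus holds all the counts in 10 of 12 libraries, and the height of the stack is greatest in replicate 3 of every group.

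Among the 30, 16 have a coding gene in the table that is named in their symbol or is 1 of the 2 nearest by the reference table. Of 57 such genes 18 are in the table and 16 were tested. In GLY against untreated 14 of the 16 were lower and 1, PLAU, was higher, in a table where 64.6% of rows were lower. Under TMM, with 10.0% of rows lower, the calls differ: BAHCC1, ALDH1A3 and IKZF2 were lower, with log2 fold changes of −1.11, −1.40 and −1.56, and PLAU was higher.
The antisense transcript LOC101927322 overlaps MALT1, a paracaspase of antigen receptor signalling, by 384 bases of GENCODE transcript. MALT1 had 1035, 1028 and 1120 counts in untreated and 222, 617 and 552 in GLY libraries (log2 fold change −1.27, SE 0.31). C9orf66, DOCK8-AS1, and DOCK8 had log2 fold changes of −1.16 (SE 0.42) and −1.97 (SE 0.38). LOC105371763 and MLLT6, a chromatin protein, had −1.74 and −1.57, and LOC100130370 and BAHCC1 had −2.38 and −2.30. SLC38A10, the other neighbour of LOC100130370, had −1.12. Under TMM, MALT1, DOCK8, MLLT6 and SLC38A10 were not called, with log2 fold changes of −0.19, −0.90, −0.38 and 0.05. The strand of the reads is not given in the sources used here, so reads from a coding gene and its antisense partner cannot be told apart where their exons overlap.

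**Figure D5:**
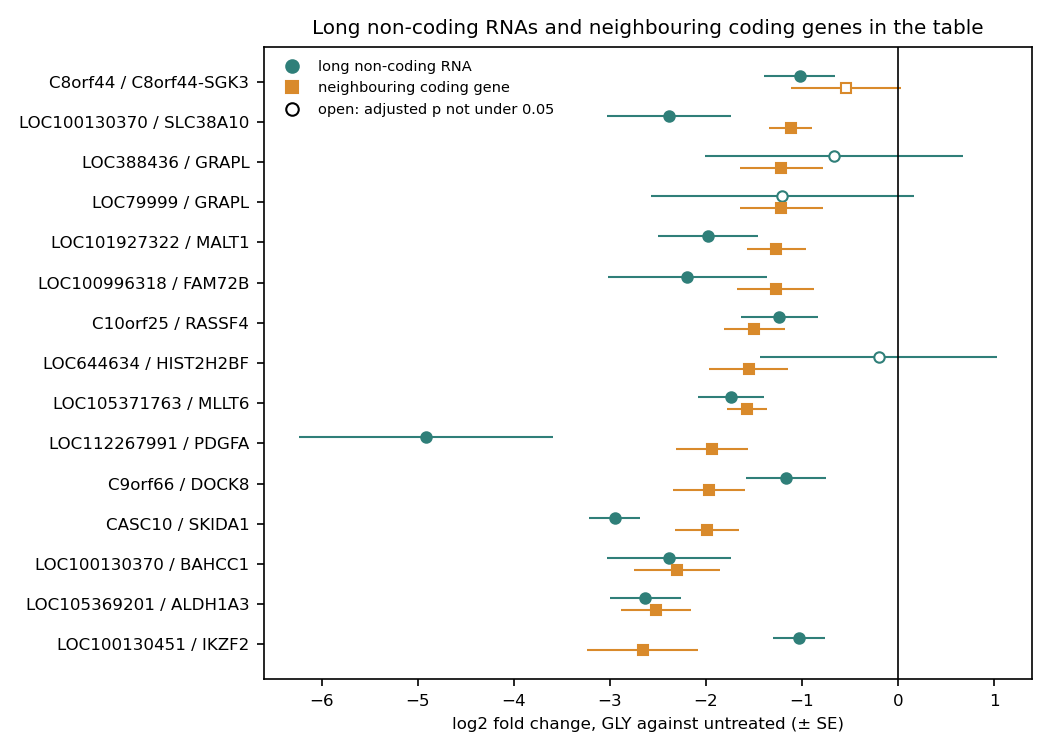
log2 fold changes of GLY against untreated, with standard errors, for tested long non-coding RNAs (circles) and the neighbouring coding genes in the table (squares). Pairs in which either gene was untested are not plotted, which leaves out PLAU, higher at 2.67, and CAMK2G. All plotted values are below 0 with library totals, while under TMM, which raises them by 1.13, some lie above it. C8orf44-SGK3 is the plotted coding gene that is not called.

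C10orf55 and PLAU, the urokinase-type plasminogen activator, went the other way. PLAU had 100, 91.4 and 25 counts in untreated, 494, 539 and 416 in GLY, and 447, 446 and 373 in GLY_PUE libraries (log2 fold change of GLY 2.67, SE 0.45, adjusted p = 0.00053 by edgeR). C10orf55, whose GENCODE transcript shares 402 bases with that of PLAU on the opposite strand, had 0, 2.58 and 0 counts in untreated, 2.14, 1.08 and 0 in PUE, 3.63, 8.62 and 7.50 in GLY, and 3.67, 6.09 and 11.2 in GLY_PUE libraries. Summed and rounded, 20 counts in GLY against 3 in untreated, scaled to library totals, is a ratio of 6.33 (95% exact interval 1.88 to 33.3). C10orf55 was below the filter on counts. Without that filter, with DESeq2 and on the deposited expression values it was called higher in both GLY and GLY_PUE against untreated. Whether its reads come from PLAU cannot be told apart without strand. CAMK2G, the other neighbour of C10orf55 in the table, was lower in GLY (log2 fold change −1.43, SE 0.21). Under TMM it was at −0.26 and was not called.

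The other 4 transcripts below the filter held few counts in every library. LOC100130357 had 6.97, 6.64 and 4.10 counts in untreated and 1.06, 0.89 and 0 in GLY libraries, and shares 340 bases with TBC1D7 on the same strand. LOC112268140 had 1.45, 7.24 and 6.89 and then 0, 2.92 and 1.38 counts. LOC100134391 had 7, 7 and 0 and then 15, 9 and 7 counts. LOC107984282 had 3, 5 and 10.2 in untreated, 8, 3 and 4.93 in GLY, and 0, 3 and 2 in GLY_PUE libraries. For LOC100130357 the untreated and GLY ranges did not overlap, and for LOC100134391 they met at 7 counts. LOC100130357 was called lower in GLY without the filter and on the deposited expression values, and with the smaller of 2 pseudocounts also in GLY_PUE. LOC107984282, without the filter, and LOC112268140, on the expression values, were called lower in GLY_PUE against PUE. LOC100134391 was called lower in the libraries numbered 3 without the filter, with DESeq2 and on the expression values.

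Averaged over the 4 groups in the fit, replicate 3 was higher than replicates 1 and 2 in 8 of the 25 transcripts and lower in 0, where 23.4% of all rows were called (18.1% higher, 5.31% lower). They were LOC100130370, LOC100505549, LOC101927322, LOC102724378, LOC105371763, LOC107985428, LOC112267991 and LOC388436. The median log2 difference was 0.53 over the 25 and 0.23 over all rows. TMM called 5 of the 25, all higher, and 7.3% of all rows as higher and 9.55% as lower. LOC112267991, with 63 and 72 counts in the untreated and PUE libraries numbered 3 against 12 to 22 in numbers 1 and 2, had a log2 difference of 1.91 (SE 0.36, adjusted p = 0.00344 by edgeR). LOC100130370 had 108 and 138 counts in those 2 libraries and 29.9 to 49.0 in the other 4 (1.22, SE 0.33, adjusted p = 0.0209). In GLY its replicate 3 was instead the lowest, and under TMM the adjusted p was 0.0758. The count of calls was 2 without PUE replicate 3, 3 without untreated replicate 3, 4 without replicate 1 of either untreated or PUE, and 5 without PUE replicate 2. What the number stands for is not given in the labels. In GLY the numbers coincide with labels of 12, 13 and 14 h, so that number and hours cannot be told apart there.
Without the 4 libraries numbered 3, GLY against untreated gave 4 higher and 16 lower calls among the 25 tested in that fit. Of all rows 72.5% were called there. GLY_PUE against untreated gave 3 higher and 12 lower, where 66.0% of all rows were called. Those 12 lower calls included C10orf25 and LOC100505549 and left out LOC112267983 (−0.62, adjusted p = 0.069). LOC388436 was not among the rows tested in that fit. C9orf66 (log2 fold change −0.63, adjusted p = 0.123) and LOC112268105 (−0.70, adjusted p = 0.141) were then no longer called in GLY, and the log2 fold change of LINC00452 was 0.97 in place of 1.68.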

How the data were processed

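Total RNA of SW480 cells was sequenced on the BGISEQ-500 platform from 0.5 µg of input, per the labels' protocols. The authors deposited 1 table of 3699 rows. Per the file headers it holds a count and an expression value per gene and library, with the authors' log2 ratios and q-values and p-values. The authors deposited estimated counts, of which 38.3% were whole on the long non-coding RNA rows. The deposited expression values have no stated unit and scale as FPKM. The submitters' processing notes list TopHat and DESeq 1.32.0 without a role. No counter, genome build, annotation or strand setting is given in the sources used here. Tested on the values, every row passed an absolute log2 ratio of 1 and a q of 0.001 in 1 or more comparisons of the authors, so the table is a selected list. The labels do not say whether replicates were separate cultures, and p-values then reflect the spread among these libraries alone, possibly a technical one.

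Library totals were recovered from count per FPKM of 625 well-covered genes (minimum 100 counts, 5 FPKM), and set to an absolute scale with 39 single-transcript genes of GENCODE release 29. Rounded counts entered edgeR 4.0.16 under R 4.3.3 (filter by filterByExpr, then the robust quasi-likelihood fit with 4 groups over 12 libraries, library totals without TMM, Benjamini-Hochberg over 3429 rows, threshold 0.05). The fit was run on simulated data in which few rows changed, in either direction. Most rows of this selected table were called, so that run does not check the calls made here. Alternatives tried were scaling by TMM or RLE, DESeq2 1.42.0, limma 3.58.1 (voom, and log2 of the expression values), other filters and thresholds, a replicate block, and libraries left out. Same-numbered libraries of untreated and PUE deviated together, with every correlation above 0.1 (0.389 to 0.702). The same held between untreated and GLY_PUE (0.193 to 0.382) and between PUE and GLY_PUE (0.173 to 0.397). Numbers 1 and 2 were not told apart against GLY_PUE. Untreated replicate 2 correlated at 0.2295 with GLY_PUE replicate 1 and at 0.1925 with GLY_PUE replicate 2. For PUE replicate 2 these values were 0.2452 and 0.1726. The labels give no pairs, so the block is an alternative only. Between GLY and untreated the same-numbered correlations were 0.056 to 0.271, highest for number 3.

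The members and gene lists were chosen with earlier results of these data known. All members may be named. Values per library are given for the 8 largest called changes in each direction in GLY, for known symbols, and for the 3 smallest p where a comparison calls none; other values per library (LOC105371763, LOC107985428, LOC112268124, LOC644634, the identical pair, untested members) were chosen after they were seen. Neighbours are the coding gene in a symbol and the 2 nearest coding genes in RefSeq. Sequence identity was computed with BLAST+ 2.17.0. RefSeq sequences are of GRCh38.p14. A window on chromosome 8 was not used.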

Additional observations from a re-analysis of the deposited data

Results flagged for a closer look

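For 3 transcripts every PUE library lay on one side without GLY and on the other with it, relative to the mean of the group without PUE; that movement itself was not tested. C10orf25 (ZNF22-AS1) moved by −0.324 CPM with PUE alone and by 0.174 CPM with PUE added to GLY. In the edgeR fit the interaction was 0.88 on the log2 scale (SE 0.56, unadjusted p = 0.139, adjusted p = 0.999). C9orf66 (DOCK8-AS1) moved by −0.239 and 0.249 CPM, with an interaction of 0.66 (SE 0.58, adjusted p = 0.999). LOC79999 moved by −0.228 and 0.524 CPM, with an interaction of 4.08 (SE 2.01, unadjusted p = 0.0482, adjusted p = 0.999). Its counts cannot be told apart from those of LOC388436, and for the summed pair the interaction was 1.05 (SE 0.94, adjusted p = 0.999).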

How the results depend on the processing

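The scaling decides most lower calls. TMM, RLE and DESeq2 centre the table on its typical row, while the recovered totals do not; which is nearer to all expressed genes was not tested. In GLY against untreated, calls were 21 with library totals, 7 under TMM, 7 under RLE, 8 with DESeq2, and 12 where only rows with at least 10 counts in every library were kept. In GLY_PUE against untreated they were 15, and 8, 8, 9 and 9. Of the libraries numbered 3, calls were 8, and 5 under TMM, 5 under RLE, 4 with DESeq2, 3 with at least 10 counts and 4 with an absolute log2 difference of at least 1. In the cases of the 10-count filter fewer rows were tested.

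Leaving out 1 library at a time gave 17 to 22 calls in GLY, 12 to 18 in GLY_PUE, 9 to 15 in GLY_PUE against PUE, 2 to 11 for the libraries numbered 3, and 0 in the other 3 comparisons. Where it leaves a group with 2 libraries the spread is shared by all groups. With a replicate block GLY against untreated gave 22 calls, 4 higher and 18 lower, where 90.0% of all rows were called. The block changed no call in PUE against untreated, GLY_PUE against GLY or the interaction. With the identical pair summed, an alternative chosen after seeing the data, calls were 21 in GLY, 14 in GLY_PUE and 7 for the libraries numbered 3.

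Over 59 log2 fold changes, 1182 of 1362 alternative values kept their direction and side of the threshold, 95 lost the call, 35 gained it and 50 changed sign. The sign changes were as follows, in the order DESeq2, RLE and TMM. In GLY against untreated, C8orf44 was at 0.0525, 0.0509 and 0.105, LOC100130451 at 0.04, 0.0377 and 0.0929, LOC388436 at 0.52, 0.48 and 0.54, and LOC644634 at 0.85, 0.86 and 0.90. C9orf66 was at 0.0635 and LOC100505549 at 0.0067 under TMM alone. In GLY_PUE against untreated, C10orf25 was at 0.15, 0.15 and 0.17, C8orf44 at 0.24, 0.24 and 0.27, C9orf66 at 0.24, 0.24 and 0.27, and LOC100130451 at 0.42, 0.42 and 0.45. LOC100505549 was at 0.20, 0.20 and 0.23, LOC100996318 at 0.0194, 0.0286 and 0.0562, LOC112267983 at 0.14, 0.15 and 0.18, LOC112268124 at 0.34, 0.34 and 0.38, and LOC644634 at 0.72, 0.69 and 0.73. Libraries decided other signs. Leaving out 1 library at a time in GLY, LOC388436 ran from −1.98 (without GLY replicate 3) to 2.19 (without untreated replicate 3), LOC79999 from −5.64 (without GLY replicate 2) to 0.32 (without untreated replicate 1), and LOC644634 from −1.22 to 0.41; in GLY_PUE LOC644634 ran from −0.95 to 0.25. LOC644634 was at 0.38 without GLY replicate 1, at 0.04 and 0.41 without untreated replicates 2 and 3, and at 0.42 without the libraries numbered 3. In GLY_PUE it was at 0.22 without GLY_PUE replicate 3, at 0.25 without untreated replicate 3, and at 0.83 without the libraries numbered 3. Depth limits transcripts under about 10 counts a library, 12 of the 30 in GLY.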
